A study of Homo sapiens with 12 samples.

Results

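The 10 genes described here belong to the inflammatory secretory response and were followed by RNA-seq: the cytokines IL6, LIF, IL11, IL1A and IL1B, the chemokines IL8 (older symbol of CXCL8), CXCL1, CXCL2 and CXCL3, and PTGS2, the gene of the enzyme COX-2. They were chosen by symbol, with earlier results of these data known, and all 10 were present among the 55242 genes counted. Hs 578T, a line from a triple-negative breast cancer (TNBC), had been transduced with lentiviral particles for GFP, a fluorescent control protein, or for full-length NRF2, the transcription factor that drives the antioxidant response. Each line was cultured with cystine (Cyss, 0.8 mM) or without it for 8 h, in medium that otherwise held the same serum, methionine and glutamine. This gave 4 groups of 3 libraries, 12 in all, named GFP with Cyss, GFP without Cyss, NRF2 with Cyss and NRF2 without Cyss. All 12 libraries therefore came from transduced cells, and within a line the groups differed in the medium alone. The labels do not say whether replicates were separate cultures, so p-values measure only the spread between these libraries, which may be technical.

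IL-6, LIF and IL-11 belong to one cytokine family, whose receptors share the signalling subunit gp130 and activate STAT3. IL-8 and the CXCL1 to CXCL3 proteins are chemokines that attract neutrophils through the receptors CXCR1 and CXCR2, IL-1α and IL-1β are the prototype IL-1 cytokines, and COX-2 makes the precursor of the prostaglandins. Genes of this kind are known to be induced rapidly through NF-κB and AP-1 sites in their promoters, and their mRNAs to be short-lived because of AU-rich elements in the 3′ untranslated region (3′ UTR).

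The AU-rich elements are shown as a description. Genes of this kind are known to carry them, so their frequency here is not independent of the choice of genes. Below is the 30-base stretch of the 3′ UTR of each gene that holds the most ATTTA pentamers, 5′ to 3′ on the transcript strand, written as DNA from GENCODE transcripts on GRCh37, with the pentamers in capitals.
IL6: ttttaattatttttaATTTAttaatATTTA
LIF: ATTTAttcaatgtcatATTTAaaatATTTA
IL11: ttccaaagccagatcttATTTATTTATTTA
IL8: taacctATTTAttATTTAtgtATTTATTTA
CXCL1: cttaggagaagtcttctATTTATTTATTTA
CXCL2: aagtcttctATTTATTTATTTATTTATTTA
CXCL3: ttacgagggttctacttATTTAtgtATTTA
IL1A: tATTTAtatatgtATTTAtaaatatATTTA
IL1B: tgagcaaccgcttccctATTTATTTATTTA
PTGS2: aagtctaatgatcatATTTATTTATTTAta

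Counted over the whole 3′ UTR, the pentamers were densest in IL6, with 14.1 per kilobase, and in CXCL2, with 14. PTGS2 held the most, 22 pentamers in 2562 bases, or 8.59 per kilobase. LIF had the lowest density, 2.19 per kilobase over 3198 bases, and IL1A came next with 4.38. The remaining genes lay between 5.54 (IL11) and 10.4 (CXCL3). Over the 18343 protein-coding genes with a 3′ UTR of at least 100 bases the median was 1.64 per kilobase, and 9.46% reached 5 per kilobase, against 8 of these 10. The longer element TTATTTATT, which contains the pentamer, occurred in 8 of the 10, with 6 copies in IL11 and 5 in CXCL2, but in neither IL6 nor IL1A, whereas 8.9% of all those genes held it. A match is a count of letters and says nothing of how long these mRNAs lasted in the cells.

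Promoters are shown for the 5 genes with a match to the NF-κB site. The windows of RefSeq (assembly GRCh38.p14) run from 250 bases before to 50 after the annotated start and were found for 9 of the 10, LIF not among them; IL1A had 2 windows, of which the first was used. Below are the bases from 130 to 11 before the start, 5′ to 3′ on the gene's strand, with matches to κB (GG, a purine, any 2 bases, a pair of pyrimidines, CC, on either strand) in capitals.
IL8 (chr4:73740439-73740558, plus strand): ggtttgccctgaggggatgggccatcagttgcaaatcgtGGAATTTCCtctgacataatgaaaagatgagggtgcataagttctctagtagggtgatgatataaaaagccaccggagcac
CXCL1 (chr4:73869263-73869382, plus strand): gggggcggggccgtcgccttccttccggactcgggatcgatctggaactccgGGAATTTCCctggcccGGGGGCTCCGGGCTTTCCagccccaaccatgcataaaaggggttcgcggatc
CXCL3 (chr4:74038700-74038819, minus strand): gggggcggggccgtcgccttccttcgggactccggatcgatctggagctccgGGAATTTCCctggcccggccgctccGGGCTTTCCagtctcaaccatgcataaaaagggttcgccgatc
CXCL2 (chr4:74099206-74099325, minus strand): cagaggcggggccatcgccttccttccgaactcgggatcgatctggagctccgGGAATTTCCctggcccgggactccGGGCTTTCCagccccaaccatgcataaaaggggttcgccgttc
IL6 (chr7:22727070-22727189, plus strand): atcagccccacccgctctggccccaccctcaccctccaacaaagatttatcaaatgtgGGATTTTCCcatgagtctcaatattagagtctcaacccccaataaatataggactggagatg

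The same 9 letters, GGAATTTCC, began 91 bases before the start of IL8, 78 before CXCL1 and CXCL3 and 77 before CXCL2, and IL6 had GGATTTTCC at 72. Compared base by base without gaps, the stretches of CXCL1 and CXCL3 were identical at 111 of 120 positions (92.5%). A κB match was present in 5 of the 9 windows and in 31.5% of 27305 promoters of the same length. The AP-1 letters TGANTCA were found in 3 of the 9 (IL8, IL1A and IL11), against 7.76% of all promoters, and the letters TATAAA of the TATA box, sought on the gene's strand only, in 3 of the 9, against 7.71%. They began 32 bases before the start of PTGS2 and 31 before that of IL8 and 239 before that of IL1A. The core letters TGACG of the cyclic AMP response element was in 6 of the 9 (25% of all), and the C/EBP letters TTNCNNAA in 5 (37.2%). The antioxidant response element, through which NRF2 acts, was sought in a loose form, TGANNNNGC, with any bases between TGA and GC. This form, which can overlap an AP-1 match, was in IL8, CXCL1 and IL1A, 3 of the 9, against 42.1% of all promoters. All letters other than TATAAA were sought on both strands, and no match here is evidence of binding.

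Reads assigned to genes numbered 27334061 to 44734611 per library (median 32974255.5). NFE2L2, the gene of NRF2, whose count includes reads from the transgene, ranged from 3647 to 4655 normalised counts in the 6 GFP libraries and from 6598 to 8396 in the 6 NRF2 libraries, without overlap. The line is labelled epithelial, yet of 8 epithelial markers EPCAM, KRT19, CLDN3 and CLDN7 had at most 3 reads in any library. CDH1 had at most 12 and CLDN4 at most 26. The keratin genes KRT8 and KRT18 averaged 166 to 205 and 798 to 1295 normalised counts per group. The mesenchymal genes VIM and FN1 averaged at least 145425 and 826717. In GFP cells the epithelial list summed to 1120 to 1260 with Cyss and 1348 to 1699 without. In NRF2 cells it summed to 942 to 1050 with Cyss and 1338 to 1591 without, mostly from KRT18. The part of this difference in the results was not tested. Of 10 leukocyte markers, 6 stayed under 10 reads in every library and CD3D, CD3E and MS4A1 had none; the summed level of the list was 347 to 399 in GFP with Cyss, 358 to 413 in GFP without, 360 to 383 in NRF2 with and 369 to 399 in NRF2 without, mostly from CSF1R. ERBB2 averaged 1226 to 1342 normalised counts, and ESR1 and PGR had at most 15 and 21 reads. Of the endothelial markers, VWF and CDH5 had at most 5 reads and KDR up to 82, and the summed level of the 3 was 48.1 to 62.6 in GFP with Cyss, 54 to 60.4 in GFP without, 42.7 to 59.2 in NRF2 with and 70.2 to 87 in NRF2 without Cyss. KDR averaged 50.2, 51.8, 45.2 and 71.3 in these groups, and the part of this in the results was not tested. In such bulk RNA, more cells expressing a gene and more RNA per cell cannot be told apart.

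Normalised read counts below are counts scaled by TMM over the 12 libraries, and are comparable between libraries of 1 gene but not between genes. Log2 fold changes (log2FC) come from edgeR's quasi-likelihood test, with p adjusted over all genes tested. The test reports no standard error (SE). Each SE was derived from it, as the size of log2FC divided by the square root of the F statistic. A gene was called where adjusted p was under 0.1 and log2FC exceeded 0.32 in size. Of the 10 genes, 9 passed the filter of 10 mean normalised counts, and each of these 9 passed it in all 4 groups. CXCL1 did not and was left untested.

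Across the 9 genes tested, Cyss deprivation was followed by moderately higher counts of some in GFP cells and by higher counts of all in NRF2 cells. In GFP cells 4 of the 9 were called higher (IL6, IL8, IL1B and PTGS2) and 0 lower, where 1.57% of the 17452 genes tested were called higher and 0.533% lower. In NRF2 cells 9 of 9 were called higher and 0 lower, against a background of 6.81% and 5.14% of 17266 genes. The 9 had a median log2FC of 0.60 in the GFP line and of 1.76 in the NRF2 line, where all genes had 0.00 and -0.01. Between the lines with Cyss, only IL8 was called higher in NRF2 cells and 0 of the 9 were lower (background 1.36% and 0.201% of 17449 genes). Without Cyss, all 9 were higher in NRF2 cells and 0 lower (5.98% and 4.09% of 17297), with a median of 1.20 against -0.02 for all genes. The difference between the responses of the lines, fitted as an interaction over the 12 libraries and called at adjusted p under 0.1, was positive for 8 of the 9 and negative for 0 (8.97% and 6.13% of 17674), with IL1A the exception. These comparisons reuse the same libraries, each group entering 2 of the 4 pairwise tests, so their counts are not independent. The genes were also chosen with earlier results of these data known. Their counts beside the shares over all genes are therefore a description and no test of their class.

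**Figure D1:**
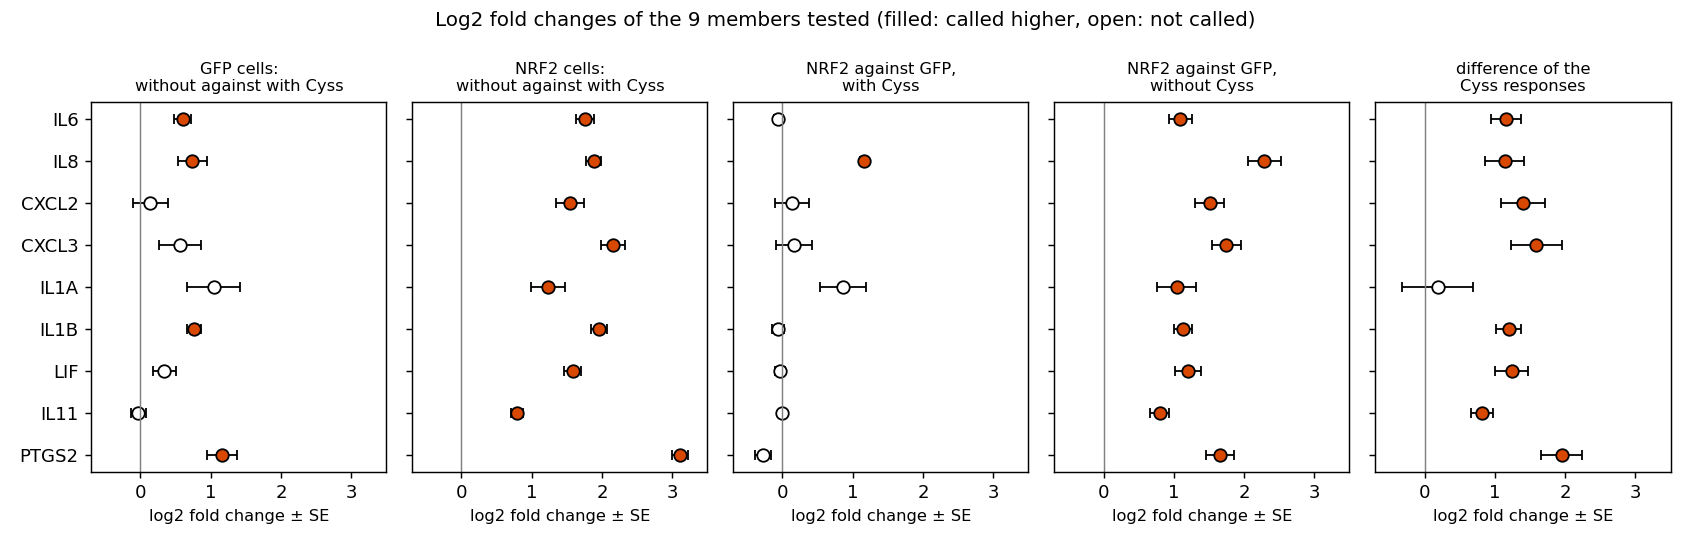
Log2 fold change ± SE (horizontal axis) of the 9 genes tested in the 4 pairwise comparisons (3 against 3 libraries) and in the difference of the Cyss responses (12 libraries). Filled points were called higher, open points were not called; in NRF2 cells all 9 are filled, from 0.79 (IL11) to 3.11 (PTGS2), and with Cyss only IL8 is.

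**Figure D2:**
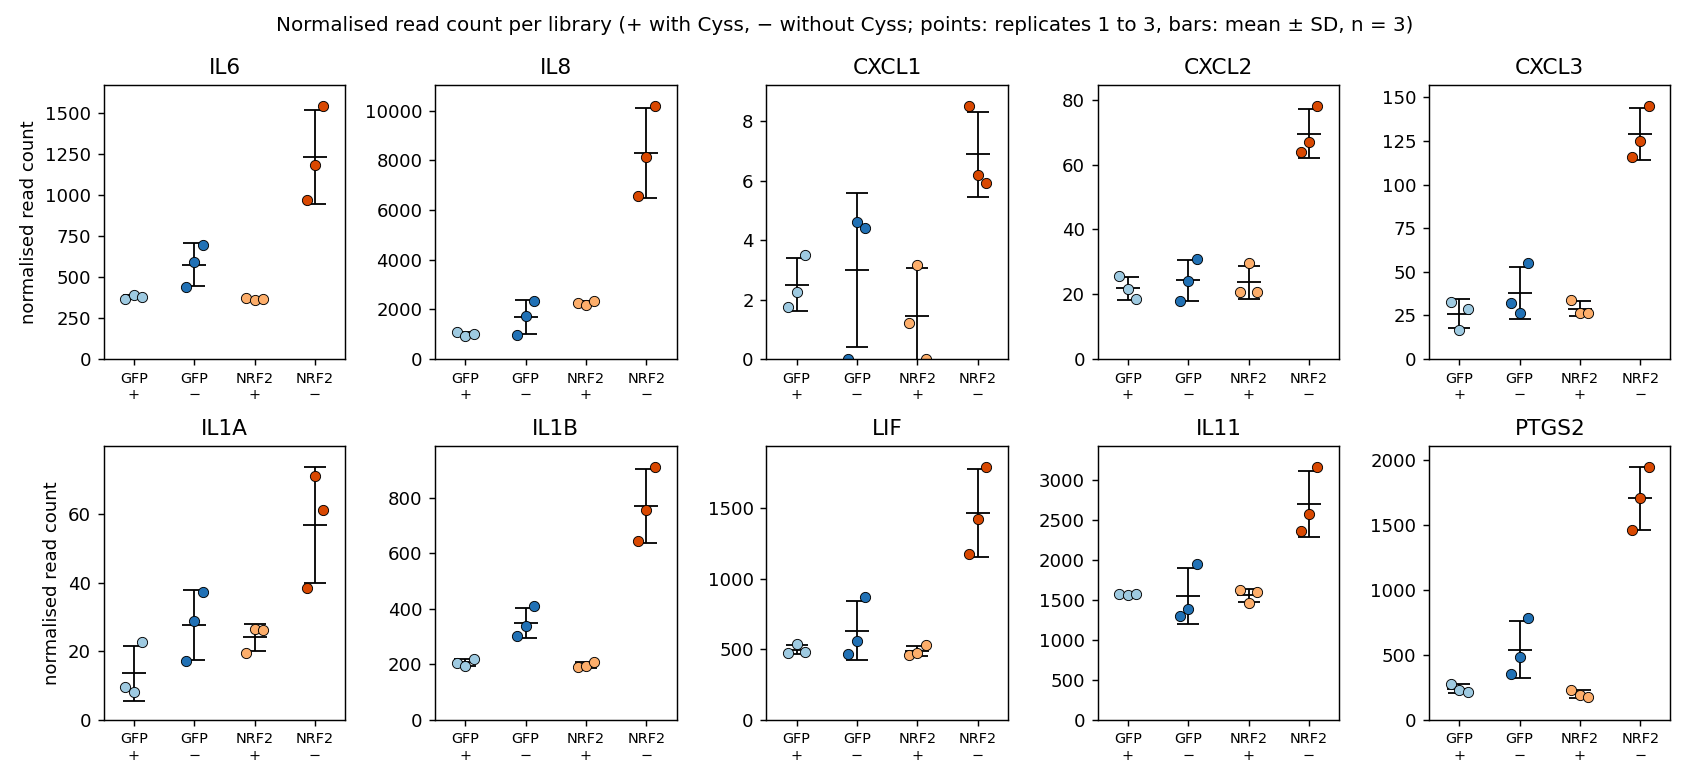
Normalised read count (vertical axis, linear and from 0, own scale per gene) of each of the 10 genes in each library, by group, with mean ± SD (n = 3; bars cut at 0). The NRF2 libraries without Cyss are the 3 highest of the 12 for each gene. The share of all genes with this order was not computed. IL8 is also higher in NRF2 libraries with Cyss (2174 to 2321) than in GFP libraries with Cyss (934 to 1069).

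PTGS2 (chr1:186640923-186650054, minus strand, GRCh37) encodes the inducible cyclooxygenase, which converts arachidonic acid to the prostaglandin precursor. Its normalised counts in replicates 1, 2 and 3 were 277, 227 and 217 in GFP with Cyss, 353, 482 and 780 in GFP without, 229, 193 and 172 in NRF2 with, and 1461, 1706 and 1947 in NRF2 without Cyss. The NRF2 libraries without Cyss were separate from all others, and the GFP libraries without Cyss lay above those with it but were widely spread. In NRF2 cells log2FC was 3.11 (SE 0.112, adjusted p = 1.92e-10), an 8.63-fold rise that ranked 3 of the 17266 log2FCs tested. In GFP cells it was 1.16 (SE 0.218, adjusted p = 0.0099), or 2.23-fold, and the responses differed by 1.95 (SE 0.292, adjusted p = 7.84e-04). With Cyss, PTGS2 was not called between the lines (-0.28, SE 0.112, adjusted p = 0.185), and without Cyss it was higher in NRF2 cells by 1.66 (SE 0.199, adjusted p = 3.79e-04).

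For this list and those below, the shares of all genes called are the ones given above for each comparison. The lists too were chosen with earlier results of these data known. Of 21 other prostaglandin genes, of synthesis, transport, breakdown and reception, 17 were tested. In NRF2 cells without Cyss 2 were higher and 4 lower (6.81% and 5.14% of all genes), with a median log2FC of -0.05 against -0.01 for all genes. The 2 higher genes stand just upstream of or beside COX-2: PLA2G4A, the phospholipase that frees arachidonic acid, rose from a mean of 22.9 to 58.4 normalised counts (log2FC 1.36, SE 0.251, adjusted p = 0.00126), and PTGS1, the other cyclooxygenase, from 128 to 225 (0.81, SE 0.106, adjusted p = 5.87e-05). PTGS1 averaged 128 and 127 in the 2 GFP groups, and its responses differed between the lines by 0.83 (SE 0.139, adjusted p = 0.00152). AKR1C3, a prostaglandin F synthase, fell by 0.62 (SE 0.0701, adjusted p = 1.32e-05), and the prostaglandin F receptor gene PTGFR by 0.55 (SE 0.0901, adjusted p = 4.65e-04). In GFP cells 0 of the 17 were higher and 1 lower, TBXAS1 of thromboxane synthesis (-0.40, SE 0.106, adjusted p = 0.0646). With Cyss, AKR1C3 (0.46, SE 0.0648, adjusted p = 6.48e-04) and the prostaglandin E receptor gene PTGER3 (0.39, SE 0.0844, adjusted p = 0.0181) were higher in NRF2 cells, 2 of 17 with 0 lower. Without Cyss 3 were higher (PTGS1, PLA2G4A and PTGER3) and 0 lower, and the interaction called 2 in each direction.

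IL6 (chr7:22765503-22771621, plus strand), the founding member of its cytokine family, had 368, 390 and 376 normalised counts in GFP with Cyss, 438, 591 and 696 in GFP without, 372, 357 and 364 in NRF2 with, and 971, 1179 and 1540 in NRF2 without Cyss. The 6 libraries with Cyss lay between 357 and 390 in both lines, and the 3 NRF2 libraries without Cyss were the highest. IL6 rose by 0.60 in GFP cells (SE 0.124, adjusted p = 0.0183) and by 1.76 in NRF2 cells (SE 0.129, adjusted p = 1.76e-07), 1.51-fold and 3.38-fold, and the difference of 1.16 was called (SE 0.211, adjusted p = 0.00251). Part of its exons, 428 bases or 9.91% of their length, lies opposite the antisense gene IL6-AS1, and 46 bases opposite STEAP1B; counting ignored strand, so reads there cannot be assigned to a strand. The same holds for 219 bases (3.99%) of PTGS2 opposite PACERR, and for 86 and 83 bases of LIF opposite LIF-AS1 and LIF-AS2.

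LIF (chr22:30636442-30642748, minus strand), a relative of IL-6 known for keeping mouse embryonic stem cells undifferentiated, showed 474, 536 and 482 normalised counts in GFP with Cyss, 468, 559 and 868 in GFP without, 463, 472 and 532 in NRF2 with, and 1177, 1423 and 1795 in NRF2 without Cyss. Only 1 of the 3 GFP libraries without Cyss, replicate 3, stood clearly above those with it. In GFP cells LIF was not called (log2FC 0.34, SE 0.163, adjusted p = 0.296), and the value depended on single libraries, with 0.04 (adjusted p = 0.864) without GFP without Cyss replicate 3 and 0.52 (adjusted p = 0.0635, called) without replicate 1 of that group. In NRF2 cells it rose by 1.58, or 2.99-fold (SE 0.119, adjusted p = 2.29e-07), and the difference of the responses was 1.24 (SE 0.237, adjusted p = 0.00348).

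IL11 (chr19:55875750-55881831, minus strand), a gp130 cytokine linked to fibrosis, had the smallest response of the 9 in NRF2 cells. Its libraries held 1566, 1556 and 1577 normalised counts in GFP with Cyss, 1302, 1379 and 1942 in GFP without, 1615, 1461 and 1591 in NRF2 with, and 2353, 2576 and 3160 in NRF2 without Cyss. GFP libraries without Cyss lay on both sides of those with it (log2FC -0.03, SE 0.109, adjusted p = 0.926). In NRF2 cells the gene rose by 0.79 (SE 0.0849, adjusted p = 8.27e-06), or 1.73-fold. The responses differed by 0.82 (SE 0.16, adjusted p = 0.00401), and without Cyss NRF2 cells had more than GFP cells by 0.80 (SE 0.134, adjusted p = 0.00208).

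IL8 (chr4:74606236-74609433, plus strand), the major neutrophil chemokine, was the only one of the 9 called between the lines with Cyss. Its normalised counts were 1069, 934 and 1025 in GFP with Cyss, 984, 1750 and 2333 in GFP without, 2263, 2174 and 2321 in NRF2 with, and 6577, 8152 and 10186 in NRF2 without Cyss. The NRF2 libraries with Cyss were all above the GFP libraries with Cyss by 1.16, or 2.23-fold (SE 0.0515, adjusted p = 4.34e-10). Cyss deprivation was followed by a rise of IL8 in NRF2 cells of 1.88 (SE 0.11, adjusted p = 1.89e-08). Without Cyss the lines differed by 2.29, or 4.88-fold (SE 0.232, adjusted p = 2.24e-04), the highest of the 9 in that comparison.
In GFP cells the groups overlapped, since replicate 1 without Cyss lay among those with it, and the call (0.74, SE 0.208, adjusted p = 0.0775) depended on single libraries. Without that replicate log2FC was 1.02 (adjusted p = 4.18e-05), and without any other of the 6 libraries the call was lost, at 0.78, 0.68 and 0.75 without GFP with Cyss replicates 1, 2 and 3 (adjusted p = 0.112, 0.183 and 0.151) and at 0.71 and 0.43 without GFP without Cyss replicates 2 and 3 (adjusted p = 0.204 and 0.216). DESeq2's test gave the same 0.74 with adjusted p = 0.265. The responses of the lines differed by 1.14 (SE 0.273, adjusted p = 0.0142).

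The 3 GRO chemokine genes lie near IL8 on chromosome 4 and had far fewer reads. CXCL3 (chr4:74902306-74904524, minus strand) showed 32.6, 16.4 and 28.9 normalised counts in GFP with Cyss, 32, 26.4 and 55 in GFP without, 34.1, 26.4 and 26.3 in NRF2 with, and 116, 125 and 145 in NRF2 without Cyss. CXCL2 (chr4:74962757-74964913, minus strand) showed 25.6, 21.6 and 18.4 in GFP with Cyss, 18, 24.1 and 30.8 in GFP without, 20.7, 29.6 and 20.8 in NRF2 with, and 63.8, 67 and 78.1 in NRF2 without Cyss. In both, 3 groups overlapped and the NRF2 libraries without Cyss stood above them all. In NRF2 cells CXCL3 rose 4.46-fold (log2FC 2.16, SE 0.17, adjusted p = 3.59e-07), the second highest of the 9, and CXCL2 2.91-fold (1.54, SE 0.198, adjusted p = 4.94e-05). Neither was called in GFP cells (0.56, SE 0.298, adjusted p = 0.34, and 0.14, SE 0.246, adjusted p = 0.804). Without GFP without Cyss replicate 3 these values were 0.21 (adjusted p = 0.778) and -0.06 (adjusted p = 0.937), and that of CXCL3 was 0.30 (adjusted p = 0.622) without GFP with Cyss replicate 2. The responses of the lines differed by 1.59 (SE 0.366, adjusted p = 0.0114) and 1.40 (SE 0.318, adjusted p = 0.0106).
CXCL1 (chr4:74735110-74737025, plus strand) had 2, 3 and 4 reads in GFP with Cyss, 0, 4 and 4 in GFP without, 1, 3 and 0 in NRF2 with, and 8, 6 and 6 in NRF2 without Cyss. The last 3 values were the highest of the 12. In a fit without the filter on low counts CXCL1 was called in NRF2 cells (log2FC 2.10, SE 0.728, adjusted p = 0.0357), and not between the lines without Cyss (1.20, SE 0.619, adjusted p = 0.256) or in the interaction (1.90, SE 1.08, adjusted p = 0.452). Of the 50-base windows of their transcripts, 4.57% in CXCL1, 13.4% in CXCL2 and 6.01% in CXCL3 also occurred in another of the 3, and reads from these are uncertain.

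IL1B (chr2:113587328-113594393, minus strand) encodes the IL-1 cytokine that is secreted after cleavage by caspase-1. Its normalised counts were 205, 194 and 220 in GFP with Cyss, 302, 338 and 408 in GFP without, 189, 194 and 209 in NRF2 with, and 643, 756 and 911 in NRF2 without Cyss. Neither pair of groups with and without Cyss overlapped. IL1B rose 1.69-fold in GFP cells (log2FC 0.76, SE 0.105, adjusted p = 9.60e-04) and 3.89-fold in NRF2 cells (1.96, SE 0.115, adjusted p = 1.89e-08), with a difference of 1.20 (SE 0.177, adjusted p = 7.44e-04).

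IL1A (chr2:113531502-113542070, minus strand), whose product is active without that cleavage and is released from dying cells, was low: 9.7, 8.2 and 22.7 normalised counts in GFP with Cyss, 17, 28.7 and 37.4 in GFP without, 19.5, 26.4 and 26.3 in NRF2 with, and 38.3, 71.1 and 61.3 in NRF2 without Cyss. It differed from the other 8 tested in that its responses in the lines were not shown to differ (0.19, SE 0.506, adjusted p = 0.85). In NRF2 cells it rose 2.35-fold (log2FC 1.23, SE 0.248, adjusted p = 0.00243), and in GFP cells log2FC was 1.04 with a larger error (SE 0.377, adjusted p = 0.164). That value depended on single libraries. It rose, and was called, without GFP with Cyss replicate 3 (1.61, adjusted p = 0.0498) or GFP without Cyss replicate 1 (1.31, adjusted p = 0.0819). It fell to 0.87 and 0.75 without GFP with Cyss replicates 1 and 2, each left out alone (adjusted p = 0.33 and 0.333). Without GFP without Cyss replicate 3 it was 0.76 (adjusted p = 0.4). Nor was it called without GFP without Cyss replicate 2. Between the lines with Cyss log2FC was 0.86 (SE 0.331, adjusted p = 0.167). It was 1.43 without GFP with Cyss replicate 3 (adjusted p = 0.0317), but 0.69 and 0.57 without replicates 1 and 2 of that group (adjusted p = 0.253 and 0.332). Without Cyss it was higher in NRF2 cells by 1.04 (SE 0.282, adjusted p = 0.0228), and not called without GFP without Cyss replicate 1 (0.77, adjusted p = 0.102). All of these values rest on 11 to 69 reads of IL1A per library.

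Among the 11 genes of IL-1 processing and release, 8 were tested. CASP4, an inflammatory caspase, was the single gene called in NRF2 cells, higher by 0.51 (SE 0.064, adjusted p = 3.84e-05; 1310 to 1868 mean normalised counts), and again the single gene between the lines without Cyss (0.35, SE 0.0859, adjusted p = 0.0155). None was lower in either comparison, and 0 were called in GFP cells or between the lines with Cyss. In the interaction CASP4 was positive (0.34, SE 0.105, adjusted p = 0.0515), and the pore-forming genes GSDMD (-0.39, SE 0.0876, adjusted p = 0.00971) and DFNA5 (-0.36, SE 0.0935, adjusted p = 0.023) were negative.

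The spread within groups was not the same for all libraries. In GFP without Cyss, replicate 3 was the highest of its group for 9 of the 10 genes and replicate 1 the lowest for 9, where over all 17674 genes replicate 3 was highest for 34.8% and replicate 1 lowest for 33.5%. In NRF2 without Cyss, replicate 3 was highest for 8 of 10 (37% of all genes) and replicate 1 lowest for 9 of 10 (38.1%). In the latter library 7.84% of reads fell outside annotated exons, against 5.82% to 6.69% in the other 11, and the part of this in the result was not tested. The counts of genes called in NRF2 cells were 9 of 9 without any one of the 6 libraries, and the interaction called 8 of 9 without any one of the 12.

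Levels of different genes were compared as reads per kilobase of exon, scaled to 1000000 reads. IL11 led in GFP with Cyss with 17.4 ± 0.116 (SD, n = 3), ahead of IL8 with 11.6 ± 0.794. IL8 led in NRF2 with Cyss, 25.9 ± 0.852 against 17.3 ± 0.92 for IL11, and in NRF2 without Cyss, 95.5 ± 20.8 against 30 ± 4.63. In GFP without Cyss the levels of these genes, 19.4 ± 7.78 and 17.1 ± 3.88, did not differ beyond their spread. Next in NRF2 without Cyss came LIF (11.3 ± 2.39), PTGS2 (9.25 ± 1.32), IL6 (8.47 ± 1.98) and IL1B (7.61 ± 1.33), neighbours whose spreads overlapped. In GFP with Cyss PTGS2 was the lowest of these 4, at 1.3 ± 0.175. The order of the 4 depends on the length used: over the 12 libraries LIF averaged 5.92, IL6 4.38, IL1B 3.77 and PTGS2 3.64 per kilobase of exon, but IL1B 7.01, LIF 5.92, IL6 5.71 and PTGS2 4.24 per kilobase of the longest transcript. CXCL3 and CXCL2 reached 1.73 ± 0.203 and 1.48 ± 0.16 in NRF2 without Cyss, IL1A 0.839 ± 0.249 and CXCL1 0.15 ± 0.031.

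**Figure D3:**
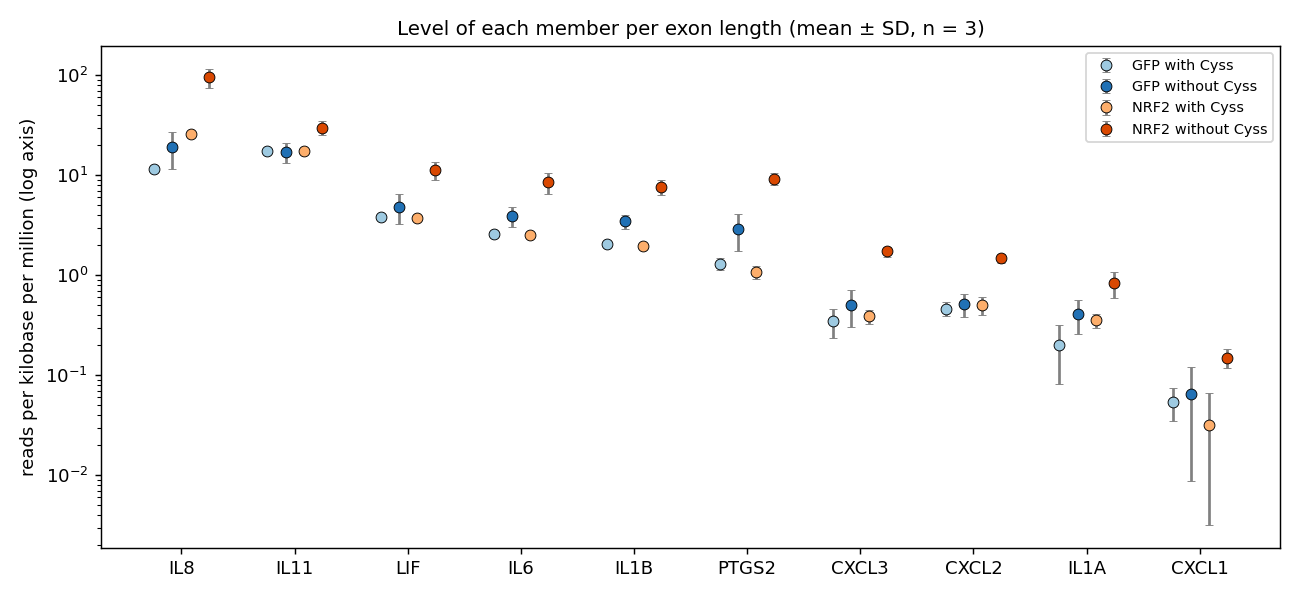
Level of each of the 10 genes in reads per kilobase of exon and 1000000 reads (vertical log axis) in the 4 groups, mean ± SD, n = 3; the lower bar of CXCL1 in NRF2 with Cyss, which would pass 0, is cut short. The orange-red points of NRF2 without Cyss are the highest for every gene, from 0.15 for CXCL1 to 95.5 for IL8.

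Of 14 other ligands of the IL-6 and IL-1 families, 7 were tested in NRF2 cells. There 3 were higher and 0 lower (6.81% and 5.14% of all genes), with a median log2FC of 0.47 against -0.01 for all genes. These were IL33, an alarmin (2.39, SE 0.413, adjusted p = 7.13e-04, from a mean of 3.62 to 20.1 normalised counts), and the receptor antagonists IL36RN (1.33, SE 0.342, adjusted p = 0.0123) and IL1RN (0.80, SE 0.168, adjusted p = 0.00313; 48.8 to 85.4). IL33 and IL36RN passed the filter only through the group in which they were high. A higher value was thus built into their selection, and the 3 of 7 and the median of 0.47 include them. That count and median are therefore no test of the list. Between the lines without Cyss 3 of 7 were higher (IL36RN, IL36B and IL1RN) and 0 lower, with the same limit for IL36RN. In GFP cells and with Cyss only 5 were tested and 0 called. IL33 and IL36RN lay under the filter there and were not tested. In the interaction 0 of 7 were called.

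Of 21 other chemokines, 6 were tested. In NRF2 cells CCL2, which attracts monocytes, rose by 0.36 (SE 0.124, adjusted p = 0.0495; 90.2 to 116 normalised counts), and CXCL12, the ligand of CXCR4, fell by 0.45 (SE 0.0523, adjusted p = 1.80e-05; 14184 to 10387). CCL2 was also higher in NRF2 cells without Cyss (0.36, SE 0.121, adjusted p = 0.0504), the interaction for CXCL12 was -0.22 (SE 0.0741, adjusted p = 0.067), and 0 of the 6 were called in GFP cells or with Cyss. The median in NRF2 cells was -0.19.

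Of 19 other cytokines, 9 were tested in NRF2 cells and 3 were higher and 2 lower, with a median of 0.01. TSLP, an epithelial alarmin, rose in both lines, by 0.48 in GFP cells (SE 0.11, adjusted p = 0.0319) and by 1.11 in NRF2 cells (SE 0.127, adjusted p = 1.48e-05), and the responses differed by 0.63 (SE 0.184, adjusted p = 0.0397). IL24 (1.67, SE 0.455, adjusted p = 0.0166), which passed the filter only through the group without Cyss (4.17 and 13.2 mean normalised counts), and IL12A (0.82, SE 0.277, adjusted p = 0.0484) were the other 2 that rose in NRF2 cells, while IL15, a lymphocyte growth factor, fell by 0.62 (SE 0.118, adjusted p = 0.00168). In GFP cells 2 of 8 were higher, TSLP and IL16 (0.47, SE 0.0791, adjusted p = 0.00483), and 0 lower. Of the 8 tested with Cyss 0 were called, and of the 9 without Cyss 1 was, TSLP (0.41, SE 0.12, adjusted p = 0.0316). The interaction called 2 positive, TSLP and IL12A, and 1 negative, IL16 (-0.49, SE 0.116, adjusted p = 0.0142).

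Receptors and signalling genes of the cytokines were mostly uncalled in the pairwise comparisons. Of 22, 17 were tested, and in NRF2 cells 1 was higher and 1 lower, with a median of 0.08. The higher was SOCS3, the STAT3-induced inhibitor of gp130 signalling, with 699 ± 26.3 normalised counts with Cyss and 1363 ± 208 without (SD, n = 3), a log2FC of 0.96 (SE 0.0885, adjusted p = 1.68e-06). In GFP cells SOCS3 averaged 709 and 790, and its responses differed by 0.81 (SE 0.143, adjusted p = 0.00214). IL11RA, the receptor of IL-11, fell by 0.38 (SE 0.0842, adjusted p = 0.00474). Without Cyss SOCS3 (0.77), IL6R (0.49, SE 0.182, adjusted p = 0.0756) and IL6ST, the gene of gp130 (0.34, SE 0.0584, adjusted p = 0.00239), were higher in NRF2 cells, 3 of 17 with 0 lower. In GFP cells and with Cyss 0 were called. The interaction called 6 of 17 positive and 1 negative, IL11RA, against 8.97% and 6.13% of all genes. Among the positive were SOCS3, IL6ST (0.39, SE 0.0867, adjusted p = 0.00926) and LIFR (0.27, SE 0.0984, adjusted p = 0.0959).

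Among 19 regulators of AU-rich mRNA decay and stability, all were tested and 2 were higher in NRF2 cells, with 0 lower and a median of 0.12. DUSP1, the phosphatase that limits p38 kinase, rose by 0.60 (SE 0.0844, adjusted p = 1.11e-04; 345 to 526 normalised counts), and ZC3H12C, a relative of the cytokine mRNA nuclease Regnase-1, by 0.37 (SE 0.0616, adjusted p = 5.80e-04). Between the lines without Cyss these and ZC3H12A, which encodes Regnase-1 (0.33, SE 0.102, adjusted p = 0.0366), were higher, 3 of 19 with 0 lower. In GFP cells and with Cyss 0 were called. The interaction called 9 positive and 0 negative (8.97% and 6.13% of all genes), with a median of 0.17.

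All 25 transcription factors and regulators known at promoters of these genes were tested. In NRF2 cells 12 were higher and 2 lower (6.81% and 5.14% of all genes), with a median of 0.32. EGR1, an immediate-early factor, rose by 2.67 (SE 0.0839, adjusted p = 1.25e-10), from a mean of 289 to 1844 normalised counts, the stress factor ATF3 by 1.12 (SE 0.129, adjusted p = 1.75e-05), and the AP-1 subunits FOS and JUN by 1.03 (SE 0.156, adjusted p = 2.27e-04) and 0.81 (SE 0.0538, adjusted p = 6.65e-08). In GFP cells 5 were higher and 0 lower, led by ATF3 (1.22, SE 0.139, adjusted p = 1.57e-04), EGR1 (0.91, SE 0.194, adjusted p = 0.0221) and ATF4 (0.84, SE 0.0357, adjusted p = 1.04e-08), the effector of the amino acid response. ATF3 averaged 216 normalised counts without Cyss in both lines. With Cyss 2 were higher in NRF2 cells, NFE2L2 itself (0.84, SE 0.0378, adjusted p = 4.58e-10) and EGR1 (0.77, SE 0.0915, adjusted p = 1.05e-04). Without Cyss 11 were higher, NFE2L2 again among them, and 2 lower. The count of NFE2L2 includes reads from the transgene, so its calls between the lines follow from the design. The interaction called 13 positive and 2 negative (8.97% and 6.13% of all genes). EGR1 was at 1.76 (SE 0.234, adjusted p = 6.39e-04), FOS at 0.95 (SE 0.249, adjusted p = 0.0245), JUN at 0.61 (SE 0.124, adjusted p = 0.00529) and CEBPD at -0.58 (SE 0.154, adjusted p = 0.0253).

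Genes outside the set whose log2 normalised counts ran most like a member's over the 12 libraries were sought among genes with a mean of at least 50. Because all points share the libraries and 3 of them stand above the rest, the correlations describe these data and carry no p. For LIF the closest were TNFRSF10B, a TRAIL receptor gene (Pearson's r = 0.996), SOCS3 (0.995) and SPRY2, a feedback inhibitor of ERK signalling (0.994). For PTGS2 they were FAM107B (0.994), CHMP1B (0.991) and INHBA, which encodes an activin subunit (0.990), and for IL6 MAFF (0.994), PLAU, the urokinase gene (0.992), and RND3 (0.990). IL1B was closest to KLF6 (0.993), TRIB1 (0.990) and PPP1R15A (0.989), and IL11 to SMTN (0.989), SPSB1 (0.989) and TBX2 (0.988). IL8 was closest to RUSC2 (0.982) and ECE1 (0.982). CXCL2 and CXCL3 were closest to THSD4 (0.984) and SLC9A7 (0.984), and IL1A to PPP1R3B (0.946).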

How the data were processed

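RNA-seq of 12 libraries of Hs 578T cells was used. Per the study's methods and the submitters' processing notes, the authors purified total RNA, prepared unstranded TruSeq v2 libraries, sequenced single ends on an Illumina NextSeq, checked reads with FastQC, aligned them to hg19 with TopHat2 2.1.0 (Bowtie) and counted reads on exons with HTSeq 0.11.2 without strand. The annotation version is not given in the sources used here. The deposited values are raw read counts per gene symbol, with 5 counter rows that held 15.9% to 17.1% of reads and stayed out. Of 55765 symbols, 523 named as rRNA were removed and 55242 kept. Without UMIs, PCR copies are counted as reads.

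Counts were tested with edgeR 4.0.16 (R 4.3.3): TMM scaling within the libraries compared, a mean of at least 10 normalised counts in any group, the quasi-likelihood test and Benjamini-Hochberg adjustment over all genes tested. Genes were called at adjusted p under 0.1 and log2FC above 0.32 in size, the thresholds of the study's figure legends. The interaction used all 12 libraries and adjusted p alone. The scripts were tested on simulated data. Alternatives were DESeq2 1.42.0 (its test, and its size factors), library size alone, 2 other filters, rRNA kept, all 12 libraries in 1 fit, an adjusted p under 0.05, no log2FC threshold, the replicate number as a term, and each library left out in turn.

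Groups were taken from the sample labels. Named were the 10 genes, up to 4 called genes with the largest log2FC per list and comparison, and the 3 genes most correlated with each tested gene (log2 of normalised count plus 1); genes beyond this rule (markers, and NFE2L2 as a check of the labels) were chosen after their values were seen or as cell type markers. The 10 genes and all lists were chosen with earlier results of these data known. Exon lengths, 3′ UTRs and gene positions came from GENCODE (v44lift37, GRCh37), promoters from RefSeq (GRCh38.p14). Protein sequences were not used here.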

Additional observations from a re-analysis of the deposited data

Results flagged for a closer look

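In 8 of the 9 genes tested the response to Cyss deprivation differed between the lines by the interaction test of edgeR, and all differences were towards a larger response in NRF2 cells. On the log2 scale the difference was 1.95 for PTGS2, 1.59 for CXCL3, 1.40 for CXCL2, 1.24 for LIF, 1.20 for IL1B, 1.16 for IL6, 1.14 for IL8 and 0.82 for IL11. Among all genes 8.97% were called in this direction. DESeq2 gave no adjusted p for CXCL2, CXCL3 and IL1A here and called the other 6.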

How the results depend on the processing

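Calls in NRF2 cells, between the lines without Cyss and in the interaction kept their direction under all alternatives that gave an adjusted p, and of these calls 1 was lost when single libraries were left out (IL1A without GFP without Cyss replicate 1). DESeq2 gave no adjusted p for CXCL2, CXCL3 and IL1A in 3 of the 5 comparisons. With Cyss, 2 genes in place of 1 were called higher in NRF2 cells without a filter on low counts, the other being IL1A (0.85, adjusted p = 0.0588), and 1 to 2 when single libraries were left out. Without the filter IL1A (adjusted p = 0.00545) and LIF (0.32, adjusted p = 2.48e-04) were also called in GFP cells, where SEs were smaller; the cause was not tested. IL8 in GFP cells was lost with DESeq2's test (adjusted p = 0.265) and at adjusted p under 0.05. In GFP cells 3 to 6 genes were called with single libraries left out, in NRF2 cells 9 to 9, without Cyss 8 to 9 and in the interaction 8 to 8. Uncalled values that changed sign then were CXCL2 (-0.06 to 0.33) and IL11 (-0.23 to 0.08) in GFP cells, CXCL2 (-0.07 to 0.24), CXCL3 (-0.10 to 0.37), LIF (-0.09 to 0.03) and IL11 (-0.04 to 0.03) between the lines with Cyss, and the interaction of IL1A (-0.38 to 0.48). By the length of the longest transcript 5 of the 10 genes changed rank in reads per kilobase, among them IL1B (3.77 to 7.01).

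Same-numbered replicates correlated in their deviations from group means by -0.03 to 0.14, not every sample was closest to its own number, and the numbers were not taken to pair the samples. With the replicate number as a replicate block 5 genes were called in GFP cells, IL1A added (1.05, adjusted p = 0.071), and the counts in the other comparisons stayed 9, 1, 9 and 8.

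Over all genes, scaling by library size alone moved the share of calls that were higher from 57% to 40.1% in NRF2 cells, from 59.4% to 46.7% between the lines without Cyss and from 59.4% to 36.2% in the interaction; the 9 genes tested kept their calls. In GFP cells, 93 genes were called lower, 185 without the filter and, with no log2FC threshold, 490 beside 543 higher (274 with it). With Cyss 237 were higher and 35 lower, with DESeq2 91 and 14, at adjusted p under 0.05 17 lower, in 1 fit of all libraries 21 lower, without the filter 66 lower, and with no log2FC threshold 724 and 398. In NRF2 cells no log2FC threshold gave 2633 and 2379 in place of 1176 and 887, and library size alone gave 1397 lower. Between the lines without Cyss, no log2FC threshold gave 2425 and 2551 in place of 1034 and 708, and DESeq2 gave 422 lower. In the interaction 1084 were lower, at adjusted p under 0.05 528, and with library size alone 1981. With single libraries left out, genes called higher numbered 216 to 306 in GFP cells, 1028 to 1286 in NRF2 cells, 142 to 254 with Cyss (142 and 155 without NRF2 with Cyss replicates 1 and 3), 765 to 1188 without Cyss and 913 to 2119 in the interaction (913 without GFP without Cyss replicate 2, 964 without NRF2 with Cyss replicate 3), and those called lower 55 to 133, 734 to 1002, 15 to 56, 425 to 840 and 482 to 1562. CXCL1 had 0 to 8 reads per library.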
